A study of Mus musculus with 39 samples.

Results

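The genes described here act in the decay and the translational control of maternal mRNA. They were listed by name: *Btg4*, *Cnot6l*, *Cnot7*, *Zfp36l2*, *Pan2*, *Dcp1a*, *Dcp2*, *Cpeb1*, *Ybx2* and *Pabpn1l*. Of the 10 genes, 8 had a probe whose transcript accession matched the RefSeq mouse annotation, among 16535 genes named in this way. *Dcp2* and *Pabpn1l* were not matched and were not analysed here. The 8 genes had 11 probes, and all 11 passed the filter on low values. *Cnot6l*, *Cnot7* and *Dcp1a* each had 2 probes; the probe with the higher mean level over all arrays, called the lead probe, stands for the gene in the counts, and the second probe is named as such.

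Expression had been measured on 39 arrays with 1 colour. OC were 7 samples of metaphase II unfertilized oocytes, IVF were 6 samples of *in vitro* fertilized embryos, and TSA(-) and TSA(+) were 8 and 6 samples of embryos cloned by somatic cell nuclear transfer (SCNT) from cumulus cells. TSA(+) embryos had received 5 nM trichostatin A, an inhibitor of histone deacetylases, for 8 h from activation. Spi-C 1.0 and Spi-C 0.1 were 4 samples each of cloned embryos that had been injected at the pronuclear stage with mRNA of *Spi-C*, an Ets family transcription factor, at 1.0 or 0.1 mg/ml. Cumulus were 4 samples of the donor cumulus cells. All embryos were at the 2-cell stage after 24 h of culture. Each sample was a pool of 10 oocytes or embryos or of 500 cumulus cells, all from the strain (B6xDBA/2)F1, and its RNA had gone through 2 rounds of linear amplification. The study asked how far the treatments brought the expression of cloned embryos toward that of IVF embryos. A single oocyte cannot be followed into an embryo in such pools, so that the comparisons are between separate samples.

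A growing oocyte stores its mRNA in a stable and largely silent form, and most of these transcripts are removed between meiotic maturation and the 2-cell stage. Removal starts with shortening of the poly(A) tail, mainly by the CCR4-NOT complex, and goes on with removal of the cap and digestion from the ends. The transcripts of several decay factors are themselves stored in the oocyte and translated at maturation. *Btg4* encodes the adaptor that brings CCR4-NOT to maternal transcripts. *Cnot6l* and *Cnot7* encode catalytic subunits of CCR4-NOT, and *Zfp36l2* encodes a zinc finger protein that brings the complex to AU-rich elements. *Pan2* encodes the nuclease of the other cytoplasmic deadenylase, PAN2-PAN3, and *Dcp1a* an activator of the decapping enzyme. *Cpeb1* encodes the protein that binds the cytoplasmic polyadenylation element and controls translation through the tail. *Ybx2*, also called *MSY2*, encodes the Y-box protein of germ cells that packages and stabilises stored mRNA.

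Levels are given as the log2 processed intensity minus the 75th percentile of the array, so that a probe at 0 was as bright as that percentile. That percentile was itself lowest in oocytes, with a median over the arrays of 373 for OC and 1071 for IVF, and highest in the injected clones, with 2364 for Spi-C 1.0 and 2523 for Spi-C 0.1. On the median OC array 57.6% of probes were well above background, against 73.3% for IVF and 63.0% for Cumulus. The summed level of 9 cumulus markers was 8.02 to 8.20 in Cumulus, 0.57 to 2.00 in OC and -0.85 to -0.02 in IVF. The labels of the oocyte and cumulus samples were borne out by most of their markers. On every OC array 7 of 7 oocyte markers were well above background, and 5 of 7, *Zp2*, *Bmp15*, *Oosp1*, *Nlrp5* and *Mos*, on no Cumulus array. *Gdf9* was well above background on all 4 Cumulus arrays, at a mean of 0.37 against 9.89 in OC. Of the 9 cumulus markers, 8 were well above background on every Cumulus array. *Amh* was so on no Cumulus array and on all 7 OC arrays, and *Has2* had close means, 0.91 in Cumulus and 0.63 in OC. The Spi-C and Cumulus arrays had been scanned with another scanner model and software version than the others and on slides and days of their own, so that these groups cannot be told apart from scanner, slide and day. Nothing in the labels says that replicates came from separate mice, and p-values measure the spread between the samples.

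**Figure D1:**
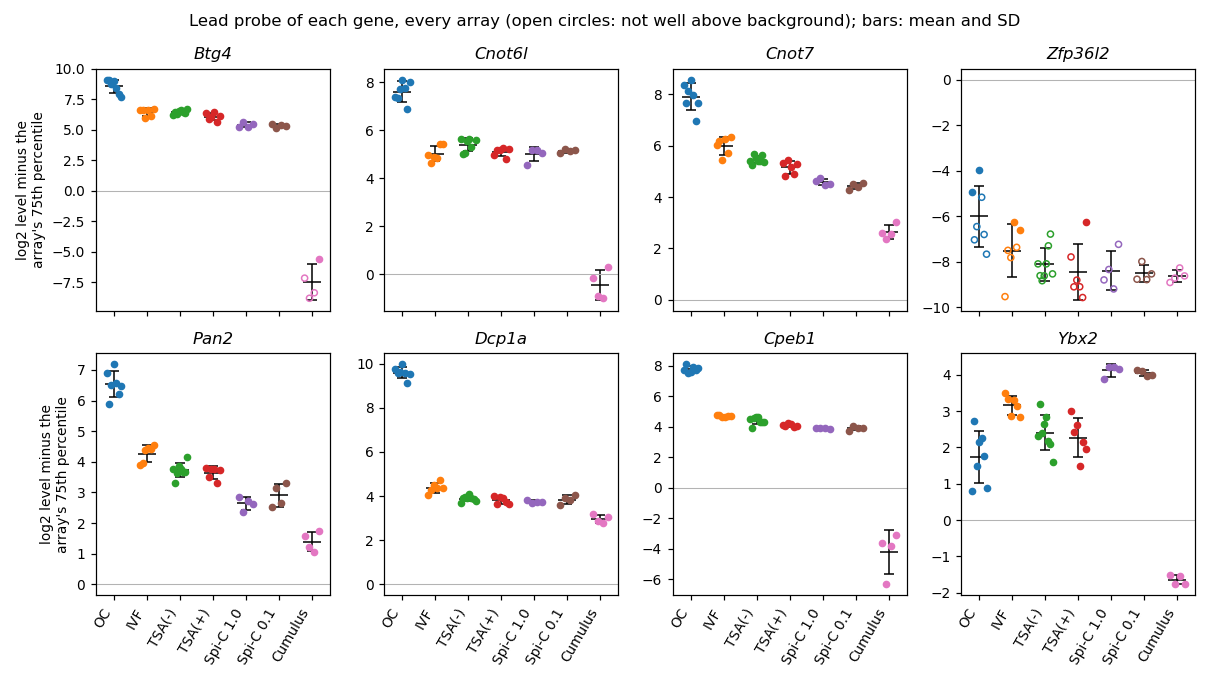
Log2 level minus the 75th percentile of the array (y axis) for the lead probe of 8 genes on each array of the 7 groups (x axis); bars are the mean and SD, and open circles are arrays on which the probe was not well above background. *Dcp1a* separates OC, from 9.11 to 9.97, from all other groups, *Ybx2* is highest in the Spi-C groups, and *Zfp36l2* is mostly not well above background.

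Leaving aside *Zfp36l2*, which was mostly not well above background, the mean level of every gene but *Ybx2* was highest in OC, and that of each was lowest in Cumulus. *Btg4*, *Cnot7*, *Pan2* and *Cpeb1* followed the same order of means from OC to IVF, TSA(-) and TSA(+) and then to the Spi-C groups. In that order the ranges of IVF and TSA(-) and those of TSA(-) and TSA(+) overlapped for each of the 4 genes. The step from TSA(+) to the next Spi-C group was free of overlap for *Cnot7* and *Pan2* but not for *Btg4* and *Cpeb1*. *Cnot6l* had no such order, as its means in the 5 embryo groups lay between 5.00 and 5.40 and neighbours overlapped. *Ybx2* was highest in Spi-C 1.0 and Spi-C 0.1, which overlapped each other and no other group, followed by IVF, TSA(-), TSA(+) and OC with overlapping neighbours.

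The promoters of 3 of these genes are shown, *Btg4* and *Cpeb1* because they were bright in oocytes and dim in cumulus cells, and *Dcp1a* because it differed most between oocytes and embryos. Each is the 250 bases before the transcript start that RefSeq gives on the assembly GRCm38.p6, at chr9:51115751-51116000 on the + strand for *Btg4*, chr7:81454759-81455008 on the - strand for *Cpeb1* and chr14:30479315-30479564 on the + strand for *Dcp1a*. Capitals mark E-boxes, CANNTG, the motif bound by basic helix-loop-helix proteins such as FIGLA, which acts in oocytes.
Btg4: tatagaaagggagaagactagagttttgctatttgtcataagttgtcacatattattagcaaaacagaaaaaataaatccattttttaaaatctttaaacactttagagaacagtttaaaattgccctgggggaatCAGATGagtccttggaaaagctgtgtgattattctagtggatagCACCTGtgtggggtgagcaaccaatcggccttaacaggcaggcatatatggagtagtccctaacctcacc
Cpeb1: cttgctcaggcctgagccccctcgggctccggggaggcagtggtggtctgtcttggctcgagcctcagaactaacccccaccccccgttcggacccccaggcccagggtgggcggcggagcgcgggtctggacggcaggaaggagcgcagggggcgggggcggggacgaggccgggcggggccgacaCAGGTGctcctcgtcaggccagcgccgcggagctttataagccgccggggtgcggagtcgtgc
Dcp1a: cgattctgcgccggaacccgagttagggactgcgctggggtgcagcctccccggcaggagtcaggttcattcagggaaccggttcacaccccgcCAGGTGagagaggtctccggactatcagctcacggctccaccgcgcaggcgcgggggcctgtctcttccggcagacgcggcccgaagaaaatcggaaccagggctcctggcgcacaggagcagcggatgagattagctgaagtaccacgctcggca
The motif reads the same on both strands and was present in 66.2% of 32851 mouse promoters of this length, so that its presence does not set these genes apart. The *Btg4* promoter held 2 copies and had a GC content of 38%, against 74% for *Cpeb1* and 65.2% for *Dcp1a*. Of the 10 genes, 7 had a promoter among those kept here. TATAAA, searched on both strands and found in 12.4% of promoters, was present in the window of *Cpeb1* alone among these. The Y-box sequence CTGATTGG, which gave the protein family of *Ybx2* its name, was present in 3.83% of promoters and, of the 7, in that of *Pan2*. It was searched on both strands and overlaps CCAAT, found in 33.8% of promoters, on its other strand. These are matches of letters and no evidence of binding.

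Between oocytes and fertilized embryos, 6 of the 8 genes were lower in IVF, *Ybx2* was higher, and *Zfp36l2* did not pass the test (limma, adjusted p under 0.01). Of all 39517 probes tested, 42.7% were lower and 23.3% higher, so that a fall was the commoner outcome on the array. The median difference was -2.19 over the 8 lead probes and -0.88 over all probes. Both depend on the scaling of the arrays, as given after the values. In pools such as these, fewer cells with a transcript and less of it per cell cannot be told apart.

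*Btg4* had levels of 7.71 at the lowest, 8.78 at the median and 9.07 at the highest in OC, and 5.94, 6.63 and 6.70 in IVF. No IVF array reached an OC array. The difference was -2.12 (SE 0.33, adjusted p = 1.47e-06), or 4.33-fold lower. Its intensity before scaling was much closer, at a median of 145065 in OC and 106794 in IVF.

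Both catalytic subunits of CCR4-NOT were lower in IVF as well. *Cnot6l* went from 6.89, 7.73 and 8.12 (lowest, median and highest) in OC to 4.65, 4.93 and 5.43 in IVF, without overlap. Its difference was -2.57 (SE 0.21, adjusted p = 1.00e-11) on the lead probe and -1.93 on the second probe (adjusted p = 1.81e-07). *Cnot7* was at 6.97, 7.99 and 8.58 in OC and at 5.46, 6.11 and 6.34 in IVF, also without overlap. Its lead probe differed by -1.91 (SE 0.20, adjusted p = 8.00e-10). Its other probe gave less, with a difference of -0.52, overlapping groups and an adjusted p of 0.0109. *Pan2*, the nuclease of the other deadenylase, was at 5.88, 6.50 and 7.18 in OC and 3.88, 4.39 and 4.56 in IVF. The groups were apart, and the difference was -2.26 (SE 0.18, adjusted p = 3.02e-12).

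*Dcp1a* showed the greatest fall of the 8 genes. Its lead probe was at 9.11, 9.57 and 9.97 in OC and at 4.04, 4.36 and 4.73 in IVF. All 13 samples fell on the side of their group, and the difference was -5.21 (SE 0.13, adjusted p = 2.55e-23), or 37.0-fold. Only 1.15% of all probes had a lower difference. The median intensity before scaling was 282435 in OC and 22847 in IVF. This fall was not shared by the second probe, whose mean was -1.32 in OC and -0.54 in IVF, the groups overlapped, and where the difference of 0.78 did not pass the test (adjusted p = 0.0122). All OC and IVF arrays measured this probe above background. Whether both probes report the same transcripts was not tested.

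The translational control genes went opposite ways. *Cpeb1* was at 7.56, 7.74 and 8.10 in OC and at 4.64, 4.72 and 4.78 in IVF, where its SD was 0.05. The difference was -3.08 (SE 0.29, adjusted p = 8.88e-11), or 8.49-fold lower, with no overlap. *Ybx2* was at 0.81, 1.77 and 2.73 in OC and at 2.84, 3.22 and 3.50 in IVF. Every IVF array was above every OC array, by a small margin, and the difference was 1.44 (SE 0.28, adjusted p = 4.35e-05). Its median intensity before scaling was 1546 in OC and 9560 in IVF.

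*Zfp36l2* could hardly be measured. Its probe was well above background on 2 of 7 OC arrays, 2 of 6 IVF arrays, 1 of 6 TSA(+) arrays and on none of the 8 TSA(-), 8 Spi-C and 4 Cumulus arrays. Levels were -7.67, -6.46 and -3.97 in OC and -9.54, -7.44 and -6.25 in IVF, with a difference of -1.51 (adjusted p = 0.0181).

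These falls were in part a matter of scale. Under quantile normalization, which gives every array the same distribution of intensities, the difference turned to 0.19 for *Btg4* (adjusted p = 0.691) and to 0.39 for *Cnot7* (adjusted p = 0.0395). *Cnot6l* and *Pan2* kept their direction but lost the call, at -0.32 (adjusted p = 0.123) and -0.23 (adjusted p = 0.183). *Dcp1a*, at -3.0, and *Cpeb1*, at -0.83, remained lower, and *Ybx2*, at 2.11, remained higher. Centring on the array median moved all genes down instead, to -2.79 for *Btg4* and -5.89 for *Dcp1a*, and left *Ybx2* at 0.76 without a call (adjusted p = 0.0113). The median of all probes was -1.55 under median centring and -0.29 under quantile normalization. Over all probes, 16871 were called lower and 9225 higher, against 21856 and 7089 under median centring and 27393 and 6207 after the normexp background correction. Relative to the median of all probes, the lead probes of *Btg4* and *Cnot7* were therefore lower in IVF under the percentile and median scalings. Under quantile normalization they were higher. The second probe of *Cnot7* was above that median under the percentile (-0.52) and median (-1.19) scalings and below it under quantile normalization (-0.39). Among the lead probes, only *Dcp1a* and *Cpeb1* were called lower, and *Ybx2* higher in direction, under each of the 4 scalings tried. On the 2 slides that held both groups, the mean difference was -1.78 and -1.75 for *Btg4*, -5.30 and -5.01 for *Dcp1a*, -3.14 and -2.99 for *Cpeb1* and 1.06 and 1.67 for *Ybx2*. The summed level of the cumulus markers, given above, was higher in OC than in IVF. However, 2 of the 9, *Tnfaip6* and *Ptx3*, had lower means in OC (-5.27 against -1.66 and -6.79 against -5.94). The sum in OC was mostly that of *Has2*, at a mean of 0.63, with *Star* next at -2.06. The part of the cumulus markers in these differences was not tested.

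**Figure D2:**
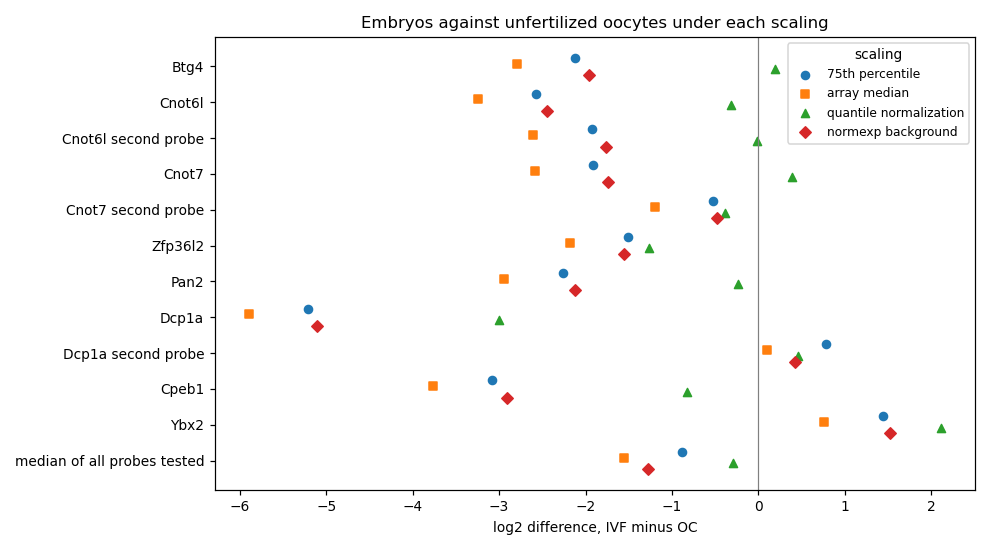
Log2 difference between IVF and OC (x axis) for the 11 probes and for the median of all probes tested (y axis), with a symbol for each of 4 ways to scale or correct the arrays. The quantile-normalized values of the lead probes of *Btg4*, 0.19, and *Cnot7*, 0.39, lie on the other side of 0 from the other settings. The lead probe of *Dcp1a* stays between -5.89 and -3.0, and its second probe between 0.10 and 0.78.

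Close relatives of these genes did not always share their course. *Cnot6*, the paralogue of *Cnot6l*, was higher in IVF by 1.73 (SE 0.16, adjusted p = 6.48e-11), and also under quantile normalization, at 2.10. *Cnot8*, the paralogue of *Cnot7*, was lower with a difference of -1.80, and *Pan3*, the partner of *Pan2*, was lower with a difference of -2.45; both lost the call under quantile normalization, at -0.34 and -0.13. Among the family of *Cpeb1*, *Cpeb3* was lower by more, with a difference of -4.74, and *Cpeb4* was higher by 3.53, and both kept their side under every scaling. *Cpeb2* did not pass the test (1.1, adjusted p = 0.0436). *Dcp1b* was lower, with a difference of -1.89, and kept that side under each scaling. *Zfp36* was lower (-1.97), while *Zfp36l1* was higher (0.74), the latter without a call under median centring (0.06). *Btg1* was lower (-2.17) and *Tob1* higher (0.90), both without a call under quantile normalization (-0.37 and 0.47), and *Btg2*, *Btg3* and *Tob2* were not called. *Ybx3* was higher by 1.43, and *Ybx1*, the Y-box protein of most cells, did not pass the test (0.32), with values of -0.36 under median centring and 2.35 under quantile normalization. The differences between a gene and its relatives were not tested.

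Against the cumulus cells, all 8 genes were called higher in oocytes, one of them, *Zfp36l2*, without a measured level in most samples. Of all probes, 44.4% were lower in Cumulus and 23.4% higher, and the median difference was -5.94 over the 8 genes and -1.15 over all probes. *Btg4* was at -7.16, -8.81, -8.36 and -5.57 on the 4 Cumulus arrays and was well above background on the last of them alone. The fitted difference from OC was -16.05 (adjusted p = 1.88e-25), and its size is not a measurement, since 3 of the 4 Cumulus arrays were at background. *Cpeb1* was at -3.63, -6.33, -3.79 and -3.09, well above background on each array, and differed by -12.01 (adjusted p = 8.34e-24). Both genes were far apart between oocytes and cumulus cells. *Cnot6l* was at -0.15, -0.90, -0.97 and 0.31 in Cumulus, with a difference of -8.04 (adjusted p = 3.12e-22).

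The lead probes of *Cnot7*, *Pan2*, *Dcp1a* and *Ybx2* differed less between both cell types than that of *Cnot6l*. *Cnot7* was at 2.59, 2.36, 2.56 and 3.02 in Cumulus, with a difference of -5.27 from OC (adjusted p = 4.75e-19). Its second probe, well above background on all arrays of both groups, differed by much less, at -1.19 (adjusted p = 4.69e-06). *Pan2* was at 1.58, 1.21, 1.05 and 1.73 and differed by -5.14 (adjusted p = 9.66e-20). For *Dcp1a* the 4 arrays were at 3.20, 2.89, 2.79 and 3.06, and the difference was -6.61 (adjusted p = 1.37e-25). On its second probe no Cumulus array was well above background. The fitted difference there was -5.97, and its size is not a measurement. *Ybx2* was at -1.51, -1.76, -1.55 and -1.75 and differed by -3.37 (adjusted p = 7.65e-11). *Zfp36l2* was well above background on 2 of 7 OC arrays and on no Cumulus array, with median intensities of 4.58 and 2.43 before scaling, so that no fold is given. All 8 genes were also called lower under quantile normalization and median centring. Over all probes, quantile normalization gave 12829 lower and 10981 higher, and normexp 27161 and 7438.

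Of 17 relatives of these genes, 7 were called higher and 7 lower in cumulus cells. Among the lead probes of all named genes, 29.8% were higher and 46.4% lower. *Btg1*, not called here (-0.36), was called higher under quantile normalization (1.42), and *Cpeb4* (-0.98) and *Ybx3* (-0.56) were called lower after normexp. *Btg2* was higher there by 5.19 (adjusted p = 8.42e-18), *Zfp36l1* by 5.92 (adjusted p = 6.66e-18), *Zfp36* by 3.29, *Dcp1b* by 2.63, *Tob1* by 2.01, *Ybx1* by 1.53 and *Btg3* by 1.08. *Cnot6* was lower with a difference of -1.1, beside the -8.04 of *Cnot6l*. *Cnot8* (-2.30), *Pan3* (-4.18), *Cpeb2* (-2.52) and *Cpeb3* (-4.86) were lower as well, and *Pabpn1*, the relative of the unmatched *Pabpn1l*, was lower with a difference of -3.14. *Tob2* was called lower as well, but was not well above background on any Cumulus array, so that no fold is given.

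**Figure D3:**
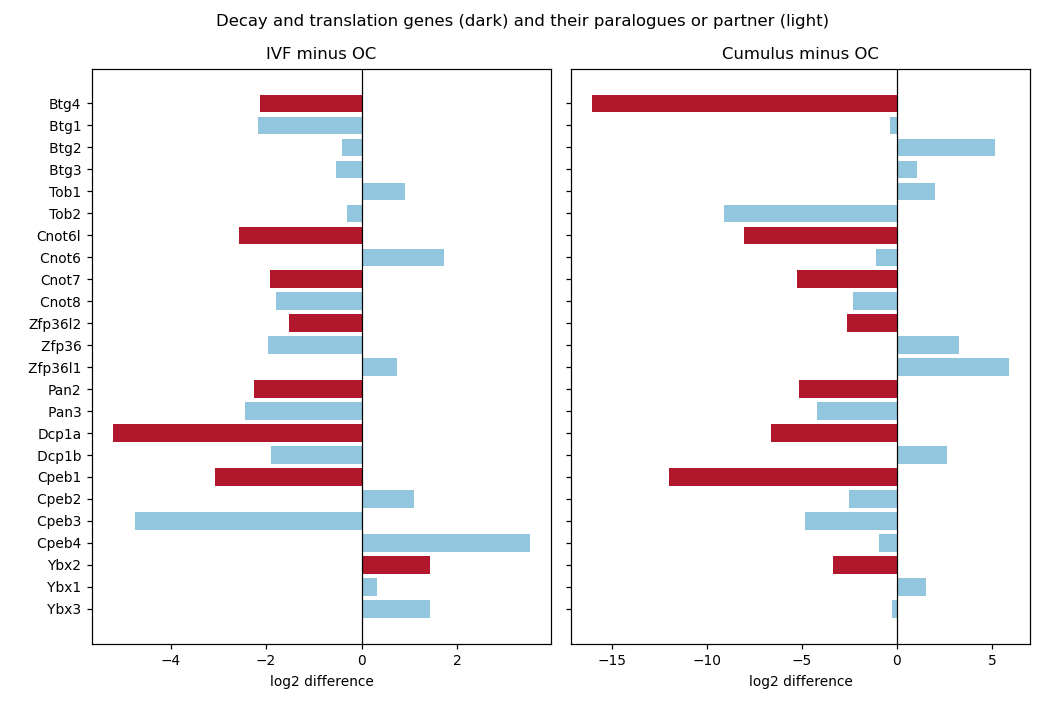
Log2 differences (x axis) of IVF minus OC (left) and Cumulus minus OC (right) for the lead probes of the 8 genes (dark bars) and of their paralogues, or for *Pan2* its partner *Pan3* (light bars), with each gene above its own relatives. *Cnot6l*, at -2.57, and *Cnot6*, at 1.73, point in opposite directions on the left, as do *Dcp1a*, at -6.61, and *Dcp1b*, at 2.63, on the right.

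Between oocytes and untreated clones, 7 of the 8 genes were called lower in TSA(-), with 46.8% of all probes lower and 23.5% higher. This comparison shares the OC samples with the one above. The differences were -2.12 for *Btg4*, -2.21 for *Cnot6l*, -2.45 for *Cnot7*, -2.81 for *Pan2*, -5.70 for *Dcp1a* and -3.39 for *Cpeb1*, with the highest adjusted p among them 3.92e-07. The seventh was *Zfp36l2* (adjusted p = 0.000692), which was well above background on 2 of 7 OC arrays and no TSA(-) array, with overlapping groups and median intensities of 4.58 and 4.18 before scaling, so that no fold is given. The second probes of *Dcp1a* (-0.65, adjusted p = 0.0228) and *Cnot7* (-0.42, adjusted p = 0.0232) were not called, with overlapping groups. Both were called lower under median centring (-1.30 and -1.07) and after normexp (-0.79 and -0.39). Under quantile normalization that of *Dcp1a* was called (-1.10) and that of *Cnot7* was not (-0.28). The second probe of *Cnot6l* was called lower (-1.86, adjusted p = 8.98e-08). After normexp, 28247 of all probes were lower and 6170 higher. *Ybx2* did not pass the test in clones, with levels of 1.6, 2.35 and 3.20 in TSA(-) that overlapped those of OC and a difference of 0.68 (adjusted p = 0.0198). It was called higher under quantile normalization (1.41, adjusted p = 1.58e-05) and after normexp (0.76, adjusted p = 0.00325), and was at 0.02 under median centring. Under quantile normalization *Btg4*, *Cnot6l* and *Cnot7* turned to 0.36, 0.25 and 0.02 and lost the call. *Dcp1a*, *Cpeb1*, *Pan2* (-0.66, adjusted p = 0.000163) and *Zfp36l2* (-1.81, adjusted p = 0.00688) stayed lower.

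Between clones and IVF embryos, 1 of the 8 genes was called in TSA(-) and 2 in TSA(+), while the Spi-C clones are described further below. In TSA(-), *Dcp1a* alone was lower than in IVF and none of the 8 was higher, beside 10.3% of all probes lower and 8.49% higher. In TSA(+), *Dcp1a* and *Cnot7* were lower and none was higher, beside 11.1% lower and 7.83% higher; under median centring the 4388 lower and 3093 higher probes became 2857 and 4179. The median difference of the 8 genes was -0.51 in TSA(-) and -0.62 in TSA(+), against -0.05 and -0.23 over all probes. The 2 comparisons share the IVF samples.

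*Dcp1a* was at 3.69, 3.90 and 4.11 (lowest, median and highest) in TSA(-) and 3.65, 3.81 and 3.98 in TSA(+), against 4.04 to 4.73 in IVF. The TSA(-) arrays overlapped those of IVF and the TSA(+) arrays did not. The difference from IVF was -0.49 (SE 0.13, adjusted p = 0.00476) in TSA(-) and -0.57 (SE 0.14, adjusted p = 0.00231) in TSA(+). Its second probe differed by more, from a mean of -0.54 in IVF to -1.97 in TSA(-) (difference -1.43, SE 0.27, adjusted p = 0.000134) and -2.16 in TSA(+) (difference -1.62, SE 0.29, adjusted p = 6.53e-05). Neither clone group overlapped IVF on that probe. Within the 3 slides that held both groups, the lead probe differed by -0.45 to -0.12 for TSA(-) and by -0.94 to -0.06 for TSA(+), and the second probe by -1.84 to -1.11 and -1.85 to -1.09. The call of the lead probe in TSA(-) was lost without IVF replicate 3 (-0.46, adjusted p = 0.0139), IVF replicate 5 (-0.42, adjusted p = 0.0202) or TSA(-) replicate 1 (-0.46, adjusted p = 0.0112).

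*Cnot7* was at 5.25, 5.41 and 5.68 in TSA(-) and at 4.83, 5.23 and 5.44 in TSA(+). No TSA(+) array reached the lowest IVF array, at 5.46. The difference from IVF was -0.83 (SE 0.21, adjusted p = 0.00261) in TSA(+) and -0.54 (adjusted p = 0.0363) in TSA(-), and the second probe of *Cnot7* was not called in either (-0.28 and 0.10). Median centring left no member called in TSA(+) against IVF.

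*Btg4* showed nearly the same mean in both, 6.45 in TSA(-) and 6.46 in IVF, and the 95% interval of the difference ran from -0.66 to 0.65. In TSA(+) its mean was 6.09, with a difference of -0.37 (adjusted p = 0.454). *Cnot6l* differed by 0.37 in TSA(-) (95% interval -0.07 to 0.80) and by 0.07 in TSA(+), with 7 of the 8 TSA(-) arrays giving a value on the lead probe. *Pan2* differed by -0.55 (adjusted p = 0.0189) and -0.62 (adjusted p = 0.0123), and *Cpeb1* by -0.30 and -0.61, the TSA(+) arrays of both genes lying below every IVF array. *Ybx2* differed by -0.76 (adjusted p = 0.0371) and -0.89 (adjusted p = 0.0212). None of these passed the threshold.

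Several relatives were called in the same comparisons. *Zfp36* was lower in TSA(-) by a difference of -1.63 (adjusted p = 1.69e-06) and in TSA(+) by -1.50. *Btg1* had differences of -0.91 and -0.72, the latter without a call under median centring. *Dcp1b* was called in TSA(-) (-1.69) and not in TSA(+) (-0.91, adjusted p = 0.0595). *Cnot8* was higher in both clone groups, by 0.77 (adjusted p = 0.000287) and 0.98 (adjusted p = 3.36e-05), while its paralogue *Cnot7* had the lower values given above.

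**Figure D4:**
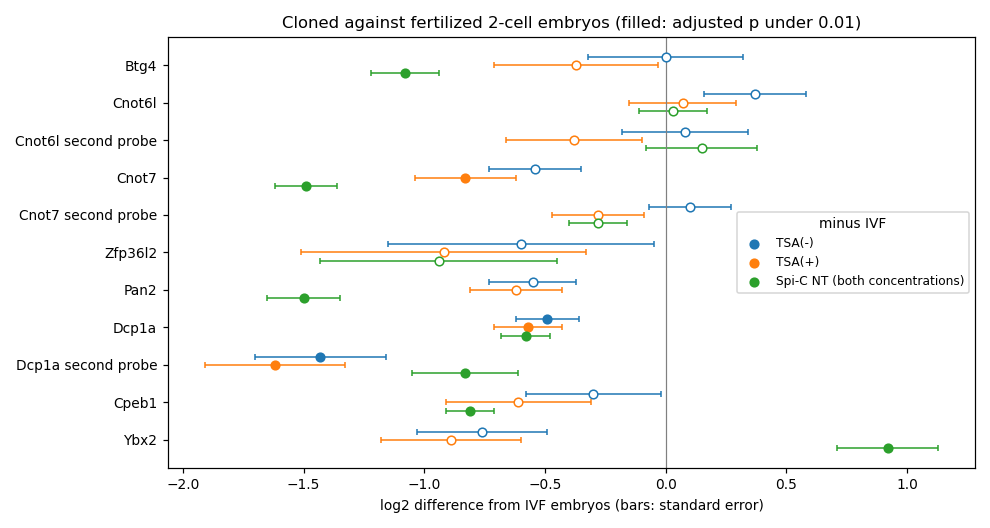
Log2 difference from IVF (x axis, with standard errors as bars) of TSA(-), TSA(+) and Spi-C NT, the mean of both concentrations, for the 11 probes (y axis); filled points have an adjusted p under 0.01. *Ybx2* is lower in the TSA groups, at -0.76 and -0.89 without a call, and higher in Spi-C NT, at 0.92, and both probes of *Dcp1a* are to the left of 0 in all 3 groups.

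No change of the 8 genes was detected with trichostatin A. No lead probe was called between TSA(+) and TSA(-) with limma, and none with the one-way test and Tukey's HSD. The lowest unadjusted p of limma was 0.134, for *Cnot7*, so that 0 lead probes had an unadjusted p under 0.05. Among all 39517 probes tested, 6435 had an unadjusted p under 0.05 with limma. Of all probes, 0.0936% were lower and 0.043% higher with limma, 54 in all, while Tukey's HSD called 797. For the second probe of *Cnot7* the test gave an unadjusted p of 0.0379 and an adjusted p of 0.273. Differences of the lead probes ran from -0.37 for *Btg4* to -0.08 for *Pan2* and *Dcp1a*, all below 0, beside a median of -0.11 over all probes; under median centring the median over all probes was 0.08. The 95% intervals ran from -0.34 to 0.19 for *Dcp1a*, -0.43 to 0.28 for *Pan2*, -1.02 to 0.29 for *Btg4* and -0.69 to 0.43 for *Ybx2*.

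Clones that had received *Spi-C* mRNA stood apart from the other clones. Against TSA(-), 4 genes were lower in Spi-C NT and 1 was higher, beside 9.2% and 11.5% of all probes. *Btg4* was at 5.27, 5.65, 5.25 and 5.45 in Spi-C 1.0 and at 5.45, 5.19, 5.43 and 5.33 in Spi-C 0.1, against 6.21 to 6.71 in TSA(-). The 8 injected samples were below all 8 untreated ones, and the difference was -1.07 (SE 0.13, adjusted p = 3.45e-07). *Cnot7* was at 4.63, 4.72, 4.45 and 4.52 in Spi-C 1.0 and at 4.26, 4.52, 4.39 and 4.53 in Spi-C 0.1. This lead probe was again below every TSA(-) sample, with a difference of -0.95 (SE 0.12, adjusted p = 8.27e-07). Its second probe overlapped TSA(-) and was not called (-0.38, adjusted p = 0.0113). That probe was called lower under median centring (-0.55), quantile normalization (-0.42) and normexp (-0.37). The median intensity of *Btg4* before scaling was 125463 in TSA(-), 100063 in Spi-C 1.0 and 102509 in Spi-C 0.1. In the same order that of the *Cnot7* lead probe was 60627, 56366 and 55725, and that of *Pan2* 17852, 15679 and 19673. For *Cpeb1*, also called lower, it was 28916, 34755 and 38201, so that this gene was brighter in the Spi-C groups before scaling. Over all probes, 4540 were higher and 3636 lower, against 2842 and 5041 under median centring and 3853 and 13137 after normexp, while the 5 calls of these genes kept their direction under each.

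*Pan2* was at 2.84, 2.38, 2.73 and 2.61 in Spi-C 1.0 and at 2.52, 3.16, 2.65 and 3.30 in Spi-C 0.1, against 3.31 to 4.14 in TSA(-). The groups did not overlap, though the highest injected sample was close, and the difference was -0.95 (SE 0.14, adjusted p = 5.56e-06). *Cpeb1* was at 3.92, 3.93, 3.89 and 3.83 in Spi-C 1.0 and at 3.71, 4.06, 3.93 and 3.92 in Spi-C 0.1. It overlapped TSA(-), which reached down to 3.94, and differed by -0.51 (SE 0.09, adjusted p = 0.000110), a call that was lost when all 39 arrays were fitted together. *Cnot6l*, *Zfp36l2* and *Dcp1a* did not pass the test, with differences of -0.33, -0.35 and -0.09. The second probes of *Cnot6l* (0.07) and *Dcp1a* (0.60, adjusted p = 0.0276) lay above 0 and were not called either.

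*Ybx2* was the one gene of the 8 to be higher. It was at 3.87, 4.21, 4.23 and 4.17 in Spi-C 1.0 and at 4.14, 4.09, 3.96 and 3.99 in Spi-C 0.1, against 1.6 to 3.20 in TSA(-) and 2.84 to 3.50 in IVF. Every injected sample was above every sample of both groups. The difference was 1.68 from TSA(-) (SE 0.20, adjusted p = 3.06e-07), or 3.20-fold, and 0.92 from IVF (SE 0.21, adjusted p = 0.000858). A lower difference from TSA(-) was found for 96.8% of probes. Its median intensity before scaling was 7036 in TSA(-) and 40389 and 40900 in Spi-C 1.0 and 0.1. *Ybx3* was lower in Spi-C NT than in TSA(-), with a difference of -0.58, and *Ybx1* differed by -0.34, which turned to 0.05 without a call under quantile normalization.

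Against IVF, 5 genes were lower in Spi-C NT and *Ybx2* was higher, beside 17.3% and 18.6% of all probes. The differences were -1.08 for *Btg4*, -1.49 for *Cnot7*, -1.50 for *Pan2*, -0.58 for *Dcp1a* and -0.81 for *Cpeb1*, and the highest adjusted p among them was 4.32e-05, for *Dcp1a*. All 5 were called in the same direction under quantile normalization and median centring. The second probe of *Cnot7* was not called (-0.28, adjusted p = 0.0584), though it was under median centring (-0.43). That of *Dcp1a* was called lower (-0.83, adjusted p = 0.00316). Before scaling, the median intensity of *Dcp1a* was 22847 in IVF, 32657 in Spi-C 1.0 and 37392 in Spi-C 0.1. That of *Cpeb1* was 28130, 34755 and 38201, so that both were brighter in the Spi-C groups. The lead probes of *Btg4*, *Cnot7* and *Pan2* were dimmer there than in IVF before scaling too. Over all probes, 7355 higher and 6831 lower calls became 5778 and 8116 under median centring and 5711 and 18693 after normexp. No difference between the 2 concentrations of mRNA was detected in these genes. None was called between Spi-C 1.0 and Spi-C 0.1 with limma or with Tukey's HSD. With limma the lowest unadjusted p of a lead probe was 0.171, for *Pan2*, while 1624 of 39517 probes had one under 0.05. After adjustment, 0.00506% of all probes were called higher and 0% lower. All Spi-C arrays were on slides 11 and 12 and were read by the other scanner, and injected embryos cannot be told apart from that scanner and day. No embryos injected with another mRNA were analysed here.

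Other genes of mRNA decay and translation were counted from 8 lists, of which 104 of 114 genes had a probe. Between OC and IVF, 55 were lower and 32 higher, and under quantile normalization 33 were lower and 38 higher. Among the lead probes of all named genes, 44.3% were lower and 27.9% higher. Of the 13 measured genes of CCR4-NOT and the BTG/TOB family, 6 were lower and 3 higher, against 3 and 4 under quantile normalization. *Cnot11*, a subunit of the complex, had the greatest fall (-5.07, adjusted p = 1.22e-22) and *Cnot10*, to which its product binds, the greatest rise (2.91). Of 6 other deadenylases 5 were lower, against 1 under quantile normalization, with *Noct*, a clock-regulated family member, at -2.83.

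Decapping and 5′ to 3′ decay was represented by 18 genes, of which 13 were lower and 3 higher (10 and 3 under quantile normalization). *Patl2*, a factor of oocyte mRNA storage and decapping, was lower (-5.25), and *Ddx6*, a helicase of P-bodies, was higher (3.43, well above background on 5 of 7 OC arrays). Among 15 genes of the exosome and of uridylation, 7 were lower and 8 higher, from -3.92 for the subunit *Exosc3* to 6.73 for the nuclease *Dis3*, which was well above background on 5 of 7 OC arrays. Of 14 RNA-binding decay factors 3 were lower and 4 higher, with *Ago2*, which carries small RNAs, at 3.20. All of the extreme genes named here kept their direction under each scaling.

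Translation factors were divided in the same way. Of 18 genes of cytoplasmic polyadenylation and translational control 11 were lower and 6 higher, against 5 and 7 under quantile normalization. Of 6 genes of poly(A)-binding 3 were lower and 2 higher (1 and 4 under quantile normalization), with *Pabpc1*, the main cytoplasmic poly(A)-binding protein, higher by 4.44 and *Paip1*, which binds it, lower (-3.01). Of 14 genes of mRNA storage 7 were lower and 6 higher (4 and 8 under quantile normalization). *Zar1*, an oocyte RNA-binding protein, fell furthest (-6.46). *Igf2bp1*, an mRNA-binding protein, was not well above background on any OC array. It was called higher in IVF, and the size of its difference is not a measurement.

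Between clones and IVF the same lists showed fewer calls, 15 lower and 10 higher in TSA(-) and 16 lower and 11 higher in TSA(+), out of 104 genes. Among the lead probes of all named genes, 13.5% were lower and 10.3% higher in TSA(-) and 14.1% and 10.6% in TSA(+). Median centring turned the counts for TSA(+) to 10 lower and 17 higher. *Noct* was lower in TSA(-) (-1.41, adjusted p = 7.75e-07), as was *Igf2bp1* (-2.41, adjusted p = 0.000126), and *Cpsf3*, the nuclease of mRNA 3′ end formation, was higher (1.94, adjusted p = 7.50e-11). No gene of the lists was called between TSA(+) and TSA(-). In Spi-C NT against TSA(-), 23 were lower and 9 higher, beside 11.4% and 12.7% of the lead probes of all named genes, with 32 and 7 under median centring and 18 and 12 under quantile normalization.

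**Figure D5:**
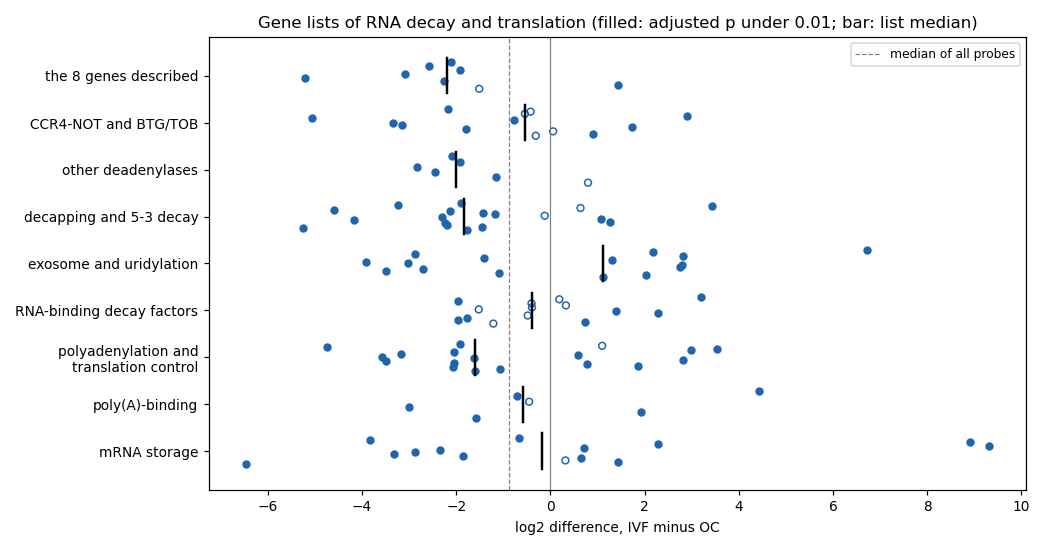
Log2 difference of IVF minus OC (x axis) for the lead probe of each gene in 9 groups (y axis), the top one being the 8 genes described; filled points have an adjusted p under 0.01, short bars are group medians, and the dashed line is the median of all probes, -0.88. The 5 called genes of the other deadenylases are all to the left of 0, although 1 was called under quantile normalization, while the exosome and uridylation genes fall on both sides.

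The genes whose levels followed each member most closely over the arrays were found by Pearson correlation among 15674 named genes, as a description, since the 39 arrays share the 7 groups. For *Btg4* they were *Rfpl4* and *Hsd17b13*, both at 0.994, and for *Dcp1a* they were *Ccdc117* and *Lrp11*, both at 0.995. *Cnot6l* was followed by *Akap12* (0.992) and *Pygo1* (0.991) over 38 arrays, *Cnot7* by *Mtus1* (0.986) and *Smim14* (0.985), and *Pan2* by *Snx9* (0.981) and *Trip12* (0.980). The closest to *Cpeb1* were *Fbxw18* (0.991) and *Cdca5* (0.990). *Ybx2*, with its own order of groups, had the weaker values of 0.950 for *Ssx2ip* and 0.934 for *Prune1*, and *Zfp36l2*, mostly at background, those of 0.813 for *Olfr281* and 0.807 for *Krt35*.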

How the data were processed

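Agilent 1-colour arrays (Cy3) had been used to measure mRNA of oocytes, 2-cell embryos and cumulus cells. What the authors deposited for each array is the output of Agilent Feature Extraction, version 9.5.3.1 per the labels and 10.5.1.1 in the file headers of the Spi-C and Cumulus arrays. Its processed intensity is background-corrected by that software and was deposited without scaling between arrays. Spot and local background medians, also deposited as intensity, entered only the normexp correction. A further table of log2 values by the authors matched, array by array, the log2 processed intensity after subtracting the 75th percentile and centring every probe on its median, and was used as an alternative.

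Outlier spots were left out here (1820 values), spots of a probe were averaged, and from the log2 intensity the 75th percentile of the array was subtracted. Tests covered the 39517 of 41174 probes that reached an intensity of 10 on any IVF or SCNT array. Through RefSeq accessions of GRCm38.p6, 23374 probes were named. Comparisons used limma 3.58.1 (lmFit, eBayes; R 4.3.3, statmod 1.5.0) with Benjamini-Hochberg adjustment over all probes, at an adjusted p under 0.01. The 31 arrays of OC, IVF, TSA(-), TSA(+) and Cumulus were fitted together, and the 28 arrays of IVF, TSA(-), TSA(+) and both Spi-C groups in another fit, where Spi-C NT is the mean of both groups. For a probe not well above background on any array of a group, a fold was also taken against the lowest signal well above background. It came out nearly the same as the fitted fold, so it set no bound and is not given. The scripts were tested on simulated data. The members, the gene lists and the tests were chosen with earlier results of these data known. Named genes were all probes of the members, their paralogues or partners, and in each list the called gene with the largest difference in each direction for IVF minus OC and TSA(-) minus IVF, together with the 2 genes most correlated with each member.

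Alternatives were median centring, quantile normalization, normexp with an offset of 50, the deposited log2 table, other filters, groups and thresholds, slide, scan day or replicate number as a block, the mean over probes, Tukey's HSD after a one-way test, as in the study's methods, and leaving out each array. The precision is limited by the number of arrays, 4 to 8 in a group.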

Additional observations from a re-analysis of the deposited data

Results flagged for a closer look

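In 77 groups of 4 to 8 values, 5 had a sample far from the others by Dixon's criterion, of which chance gives about 1 in 20. *Cnot6l*, on its second probe, was lowest in Spi-C 1.0 replicate 1, at 3.31 with the next sample at 4.83, and lowest among TSA(+) in replicate 5, at 3.58 with the next at 3.87. *Ybx2* was also lowest among Spi-C 1.0 in replicate 1, at 3.87 with the next at 4.17, though still above every TSA(-) and IVF sample. *Cnot7*, on its second probe, was lowest among TSA(+) in replicate 4, at -0.74 with the next at -0.31. *Dcp1a*, on its second probe, was highest among TSA(+) in replicate 1, at -1.21 with the next at -2.16. All 5 were well above background.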

How the results depend on the processing

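For the count of members called, quantile normalization gave 3 for IVF minus OC and 0 for TSA(-) minus IVF. For TSA(-) minus IVF an adjusted p under 0.05 gave 4. For TSA(+) minus IVF, 4 were called at an adjusted p under 0.05, 0 with median centring, 5 with normexp, 4 with the compared groups alone, 4 with all 39 arrays in 1 fit and 1 with the mean over probes. Quantile normalization reversed the lead probes of *Btg4* (0.19) and *Cnot7* (0.39) in IVF minus OC. In TSA(-) minus OC it reversed those of *Btg4* (0.36), *Cnot6l* (0.25) and *Cnot7* (0.02). The cause was not tested. Leaving out each array gave 7 to 8 called members for IVF minus OC and for TSA(-) minus OC, 0 to 1 for TSA(-) minus IVF and 2 to 3 for TSA(+) minus IVF. The counts for the other comparisons stayed as they were. *Zfp36l2* became called in IVF minus OC without OC replicate 7 (-1.78) or IVF replicate 4 (-1.76), *Ybx2* in TSA(-) minus OC without OC replicate 2 (0.85) or TSA(-) replicate 8 (0.79), *Pan2* in TSA(+) minus IVF without IVF replicate 1 (-0.70) or 2 (-0.69), and *Ybx2* there without TSA(+) replicate 1 (-1.04). Samples with the same replicate number did not deviate together (97 pairs, median r -0.00191, highest 0.151). Such correlations cannot settle whether the number marks samples prepared together. With the replicate number as a block, *Dcp1a* in TSA(-) minus IVF was at -0.47 without a call (adjusted p = 0.0190) and *Pan2*, at -0.60, was called (adjusted p = 0.00828). It also brought a call for *Ybx2* in TSA(-) minus OC (0.79, adjusted p = 0.00579) and for *Pan2* in TSA(+) minus IVF (-0.62, adjusted p = 0.00703), and changed no other call of a lead probe. Over all probes, TSA(+) minus TSA(-) gave 54 calls, 512 at an adjusted p under 0.05, 71 with median centring, 76 with quantile normalization, 371 with normexp, 11 with the compared groups alone and 118 with all 39 arrays. Slide and scan day as random blocks had correlations of at most 0.0618 within a block. *Zfp36l2* could not be fitted under the filter on detection.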
